A study of Mus musculus with 72 samples.

Results

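The vessel miRNAs mmu-miR-126a-3p, mmu-miR-126a-5p, mmu-miR-143-3p, mmu-miR-145a-5p and mmu-miR-145a-3p were followed through 3 brain regions of wild-type and Thap1+/- mice with and without a peripheral nerve injury. They were taken by name from the deposited count tables, where they are 5 of 1927 miRNA features (the mouse prefix mmu is left out below where it is not needed). THAP1 is a transcription factor, and loss of 1 functional copy causes the human dystonia DYT-THAP1 (DYT6). The mice were male and were either wild-type or Thap1+/-. Some were naive, and the others had their right sciatic nerve crushed for 1 minute under isoflurane at 12 weeks of age and gave tissue 12 weeks after the injury. Left cortex, left striatum and right cerebellum were sampled, which gives 12 groups of region, genotype and treatment. Each group has 6 labelled biological replicates, but 1 of the cortex libraries of naive wild-type mice was not analysed here, and 71 libraries entered the comparisons. The labels name neither the design of the Thap1 allele nor the age of the naive mice at sampling. Thap1 mRNA was not measured, so the genotype labels were not checked on the targeted gene.

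Both families are vessel miRNAs with separate cell sources. miR-126 is made by endothelial cells, from an intron of Egfl7, the gene of a secreted endothelial protein, and its abundant 3p strand acts on inhibitors of VEGF signalling (Spred1 and Pik3r2). The other strand of the same hairpin, miR-126a-5p, is also loaded and acts on Dlk1, an inhibitor of Notch signalling, in endothelial cells. miR-143 and miR-145a are cut from one shared primary transcript and are made mainly by smooth muscle cells of arteries and by pericytes, where they maintain the contractile state. In whole brain tissue, these miRNAs therefore report on cells that make up a small part of the sample.

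The sequence of miR-126a-3p is printed here because the strands of its hairpin are compared further on. RefSeq (GRCm38.p6) placed the mature strand at chr2:26591402-26591423, plus strand, inside the protein-coding gene Egfl7 (chr2:26581083-26592682), and its hairpin Mir126a, 73 bases long, at chr2:26591357-26591429. Of the 5 miRNAs, 1 was matched by name to a mature sequence in the RefSeq table used. In the first line the capitals mark the seed, bases 2 to 8, and in the second they mark the mature 3p strand within its hairpin.
miR-126a-3p: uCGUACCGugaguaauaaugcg
Mir126a: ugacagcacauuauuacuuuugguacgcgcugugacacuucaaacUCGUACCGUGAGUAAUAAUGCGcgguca
No other of the 1679 mature miRNAs in that table has this seed. An antisense hairpin, Mir126b, occupies the minus strand at chr2:26591363-26591420, and its 5p strand is complementary to miR-126a-3p over 19 bases.
miR-126b-5p: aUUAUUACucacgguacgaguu
Capitals again mark the seed. Whether strand was used in counting is not given in the sources used here. miR-126b-5p was counted 0 times over all 71 libraries and miR-126b-3p 6 times. The passenger strand miR-143-5p had 5 counts over all libraries, and the near copy miR-145b had 0.

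The libraries held from about 7479450 to about 12589100 miRNA counts each. The let-7 family took much of them, and its share moved with the groups. In the cortex it was 55.2 ± 2.17% (SD, n = 5) in naive wild-type mice and 45.9 ± 2.64% (n = 6) in crushed wild-type mice. In the cerebellum it was 68.5 ± 5.49% (n = 6) in crushed Thap1+/- mice, and 2 of those libraries, numbered 47 and 86 in the deposited table, stood apart at 75.7% and 74.2%. Because of this, levels are given as CPM, a miRNA's count divided by its library's size and set to a fixed common total, after TMM scaling, which sets library size by the bulk of the miRNAs. The miRNAs known from neurons, which mark brain tissue, summed to between 52649 and 149384 CPM in every library. In bulk tissue of this kind, fewer cells of a type and less RNA per cell cannot be told apart.

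miR-126a-3p was by far the most abundant of the 5 in every group, and the 2 strands of miR-145a were rare. Raw counts of miR-126a-3p ran from 123009 to 276756 per library (median 208173), and those of miR-126a-5p from 13912 to 68222 (median 42714). miR-143-3p had 38428 to 107937 counts (median 62450). Although made from the same primary transcript, miR-145a-5p had only 109 to 829 counts (median 347) and miR-145a-3p 34 to 174 (median 93). Counting error alone is therefore largest for miR-145a-3p. Together the 5 took 3.77 ± 0.265% (SD, n = 23) of all counts in the cortex, 3.0 ± 0.278% (n = 24) in the striatum and 2.56 ± 0.348% (n = 24) in the cerebellum.

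**Figure D1:**
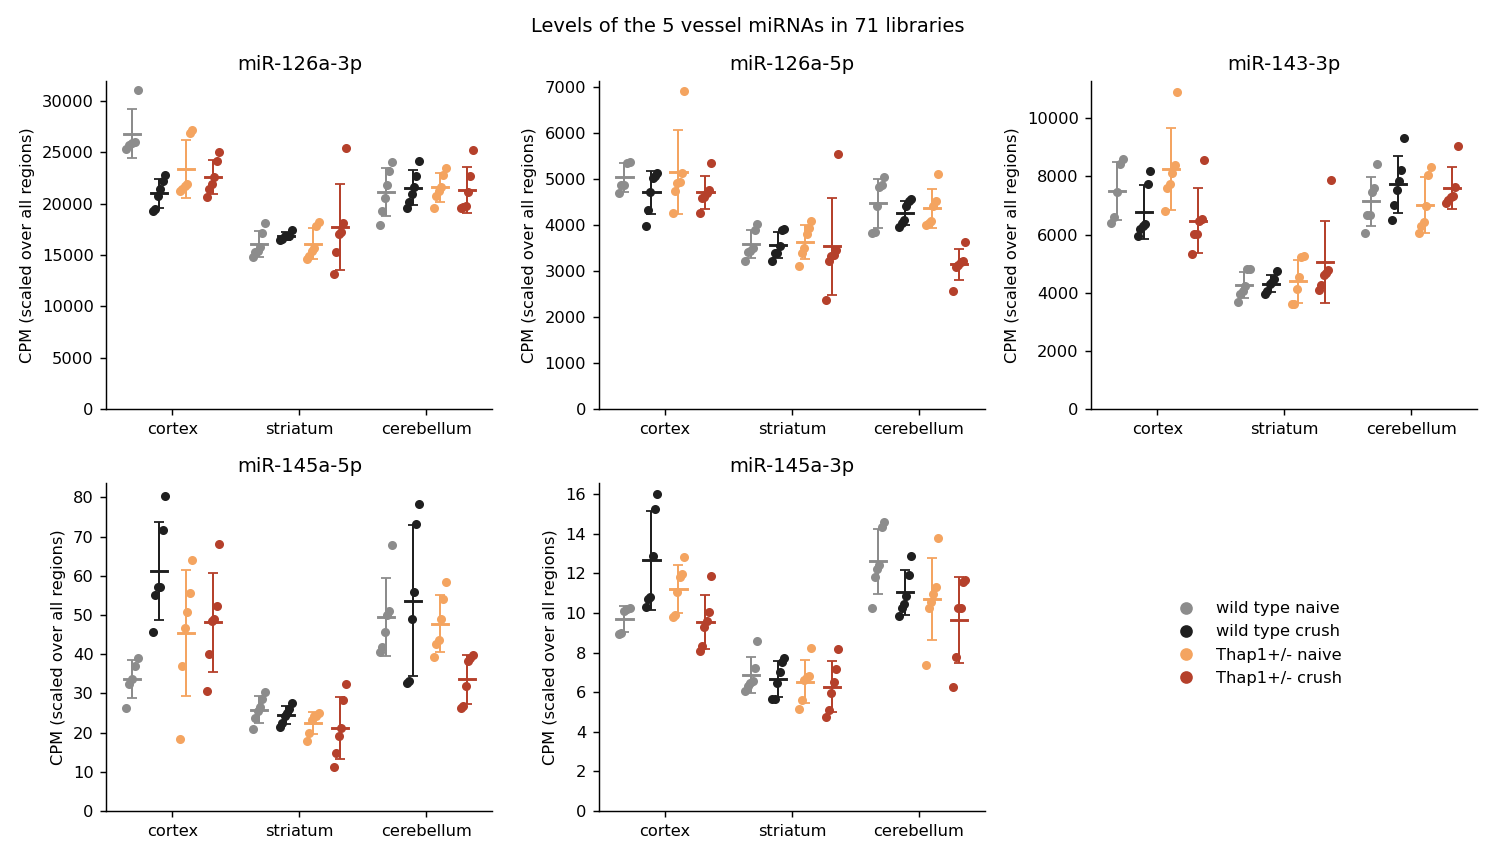
Level of each vessel miRNA in the 12 groups, in CPM after TMM scaling of all 71 libraries together (vertical axes start at 0), with points for libraries, lines for group means and bars for SD. The striatum groups sit lowest for miR-143-3p, miR-145a-5p and miR-145a-3p, and the crushed Thap1+/- cerebellum group sits below the other cerebellum groups for miR-126a-5p.

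All 5 vessel miRNAs were lower in the striatum than in the cortex. Scaled over all libraries together, miR-126a-3p averaged 23298 ± 2876 CPM (SD, n = 23) in the cortex, 16683 ± 2265 CPM (n = 24) in the striatum and 21393 ± 1836 CPM (n = 24) in the cerebellum. For miR-143-3p the levels were 7251 ± 1273, 4508 ± 848 and 7376 ± 880 CPM in the same order. The striatum was lowest for both miRNAs, and the cortex and cerebellum ranges overlapped broadly. miR-145a-5p stood at 47.7 ± 15.2, 23.5 ± 4.76 and 46.1 ± 13.5 CPM, and miR-145a-3p at 10.8 ± 1.99, 6.58 ± 1.01 and 11.0 ± 2.0 CPM. miR-126a-5p fell in a different order at the top, with 4893 ± 569 CPM in the cortex, 3581 ± 556 CPM in the striatum and 4062 ± 662 CPM in the cerebellum.

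Each striatum-to-cortex difference was larger than the spread between libraries. In a comparison where 56.8% of the 655 miRNAs tested passed an adjusted p of 0.05 by edgeR's quasi-likelihood test, all 5 passed and all were lower in the striatum. The log2 fold changes were −0.49 ± 0.04 (SE) for miR-126a-3p, −0.45 ± 0.05 for miR-126a-5p, −0.68 ± 0.06 for miR-143-3p, −0.70 ± 0.07 for miR-145a-3p and −0.98 ± 0.10 for miR-145a-5p, averaged over the 4 genotype and treatment groups. miR-145a-5p differed most in size, but over the naive wild-type libraries alone its difference was −0.37. In turn, all 5 were higher in the cerebellum than in the striatum, in a comparison that called 74.8% of all miRNAs, by 0.36 for miR-126a-3p, 0.17 ± 0.05 for miR-126a-5p, 0.71 for miR-143-3p, 0.74 for miR-145a-3p and 0.96 for miR-145a-5p on the log2 scale.

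Other miRNAs of the vessel wall followed the 5 in one of these comparisons and not in the other. Of all miRNAs, 56.8% were called in striatum against cortex. The shares were 74.8% in cerebellum against striatum and 73.3% in cerebellum against cortex. Of 17 tested, 13 were lower and 1 was higher in the striatum than in the cortex, with a list median of −0.41 on the log2 scale beside 0.04 for all miRNAs. The lower ones were mmu-miR-10b-5p (−3.47), mmu-miR-195a-5p (−1.91), miR-10a-5p, miR-130a-3p, miR-199a-3p/199b-3p, miR-199a-5p, miR-221-3p, miR-222-3p, miR-23a-3p/23b-3p, miR-27a-3p/27b-3p, miR-322-5p, miR-497a-5p and miR-503-5p, and mmu-miR-139-5p was higher (1.82). Between cerebellum and striatum the same list split into 8 higher and 8 lower (median 0.10 beside −0.05 for all). The higher ones were mmu-miR-10b-5p (8.62), miR-10a-5p, miR-130a-3p, miR-195a-5p, both miR-199a features, miR-210-3p and miR-497a-5p, and the lower ones mmu-miR-139-5p (−4.88), miR-221-3p, miR-222-3p, miR-27a-3p/27b-3p, miR-29b-3p, miR-322-5p, miR-503-5p and miR-92a-3p. Between cerebellum and cortex 7 were higher and 9 lower (median −0.49 beside 0.00), with the same names except that miR-210-3p was not called and miR-23a-3p/23b-3p was also lower.

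Markers of other cells were also called between the regions, where most miRNAs were. In striatum against cortex 56.8% of all miRNAs were called. In the striatum against the cortex, both tested fibroblast and meningeal miRNAs were lower, miR-199a-3p/199b-3p and mmu-miR-199a-5p (−1.65), and both also stand in the vessel wall list. Of 4 white cell miRNAs, 3 were lower (miR-142a-3p, miR-150-5p and miR-223-3p). Of 4 neuronal miRNAs, miR-124-3p, miR-128-3p and miR-9-5p were lower and miR-138-5p was higher. Of 6 choroid plexus and epithelial miRNAs, mmu-miR-204-5p was lower (−0.59), and in the muscle list miR-133a-3p/133b-3p and miR-1a-3p were lower and miR-206-3p was higher, while 0 of 3 red cell miRNAs passed.

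In the cerebellum against the striatum all 6 choroid plexus and epithelial miRNAs were higher (miR-141-3p, miR-200a-3p, miR-200b-3p, miR-200c-3p, miR-204-5p and miR-429-3p), as were both fibroblast and all 3 muscle miRNAs, miR-486a-5p/486b-5p of the red cells, and miR-124-3p, miR-9-5p and miR-223-3p. The lower ones were miR-142a-3p, miR-142a-5p, miR-150-5p, miR-128-3p and miR-138-5p. Of all miRNAs, 74.8% were called in this comparison. Against the cortex, where 73.3% of all miRNAs were called, the cerebellum gave the same directions with 2 exceptions. There miR-223-3p was lower and miR-429-3p was not called. The part of these cells in the regional differences of the vessel miRNAs was not tested.

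The endothelial miRNAs were lower in the cerebellum than in the cortex by small amounts that depended on the setting, and the smooth muscle ones were not called. Where 73.3% of all miRNAs were called, miR-126a-3p was lower in the cerebellum by a log2 fold change of −0.13 ± 0.04 (edgeR quasi-likelihood adjusted p = 0.00907) and miR-126a-5p by −0.28 ± 0.05 (adjusted p = 3.09e-06). The differences for miR-143-3p (0.03), miR-145a-5p (−0.02) and miR-145a-3p (0.03) did not pass, with adjusted p from 0.685 to 0.904. The miR-126a-3p call was lost with the RLE scaling and with DESeq2 (−0.08 in both), and without scaling all 5 were called lower, while the median of all miRNAs moved to −0.45. In naive wild-type libraries alone, miR-145a-5p and miR-145a-3p were higher in the cerebellum, by 0.53 and 0.37, which the average over groups does not show, and miR-126a-5p was at −0.18 and did not pass (edgeR adjusted p = 0.057). RNA from the cerebellum was extracted with another kit and came from the other side of the brain, so kit, side and region cannot be told apart in any comparison with the cerebellum. Scaling matters for these comparisons. As a share of raw counts miR-126a-3p was lowest in the cerebellum, with 1.66 ± 0.204% against 2.02 ± 0.175% in the striatum and 2.47 ± 0.144% in the cortex. The let-7 share was highest in the cerebellum as well, with group means of 58.4 to 68.5% against 44.5 to 47.2% in the striatum. Without scaling, the cerebellum-to-striatum difference turned to −0.28 for miR-126a-3p and −0.47 for miR-126a-5p, where the median of all miRNAs was −0.67. Relative to that median, the 2 values are 0.39 and 0.20. Taking off the median puts back much of what scaling does, so these 2 values are no separate check of it.

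In the cortex of wild-type mice, the endothelial miR-126a-3p was lower and both miR-145a strands were higher 12 weeks after the crush. The 5 naive libraries held 27275, 28099, 28317, 29194 and 32518 CPM of miR-126a-3p (scaled within the cortex), and the 6 crushed ones ranged from 20797 over a median of 21962 to 24631 CPM. Every crushed library was below every naive one. The log2 fold change was −0.38 ± 0.08 (SE), with an edgeR quasi-likelihood adjusted p of 0.00107. For miR-145a-5p the naive values were 28.7, 34.0, 37.4, 38.7 and 44.2 CPM, and the crushed values ran from 48.3 over 61.7 to 87.2 CPM. Again the groups did not overlap, in the opposite direction, with a log2 fold change of 0.83 ± 0.23 (adjusted p = 0.00889). How many of all miRNAs show no overlap between these groups was not counted. miR-145a-3p had 9.43, 9.94, 10.6, 11.1 and 11.6 CPM in naive and 10.9, 12.5 and 17.3 CPM (lowest, median and highest) in crushed libraries. Its groups overlapped slightly, with a log2 fold change of 0.36 ± 0.13 (adjusted p = 0.035). That last call was lost under DESeq2 and under the RLE scaling, and without any one of 6 libraries (crush 2, 113 and 139 and naive 31, 67 and 124).

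The partner miRNAs of the same transcripts were not called. miR-126a-5p, from the same hairpin as miR-126a-3p, changed by −0.13 ± 0.09 (edgeR adjusted p = 0.325), from 5466 ± 300 CPM (SD, n = 5) to 5008 ± 457 CPM (n = 6). miR-143-3p, from the same transcript as miR-145a, changed by −0.17 ± 0.12 (adjusted p = 0.284), from 8148 ± 1066 to 7218 ± 861 CPM. So 3 of the 5 were called in a comparison that called 35.0% of the 549 miRNAs tested, 192 in all. Without scaling beyond the library total, the miR-126a-3p difference was −0.07 and did not pass, while the median of all miRNAs rose to 0.36. The miR-145a-5p difference was 1.13 there. Relative to the median, miR-126a-3p was at −0.43 and miR-145a-5p at 0.77. Taking off the median puts back much of what scaling does, so these 2 values are no separate check of the scaled result. In the authors' deposited table the same comparison has miR-126a-3p at −0.42 (adjusted p = 1.22e-05), miR-145a-5p at 0.60 (0.0055) and miR-145a-3p at 0.28 (0.0894).

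Other miRNAs of the vessel wall were called in this comparison about as often as miRNAs in general. Of the 17 tested, 7 were higher, 0 were lower and 10 did not pass, beside 35.0% of all miRNAs called, and the list's median was 0.31 on the log2 scale beside 0.06 for all. mmu-miR-221-3p, which acts on Kit and on cell-cycle inhibitors in vessel cells, rose by 0.74. mmu-miR-195a-5p of the miR-15 family rose by 0.59 and mmu-miR-29b-3p, which acts on collagen mRNAs, by 0.58. The other rises were those of miR-503-5p (0.46), miR-23a-3p/23b-3p (0.33), miR-322-5p (0.32) and miR-222-3p (0.31). The most abundant miRNA of the list, mmu-miR-139-5p, was at −0.16 and did not pass (edgeR adjusted p = 0.277). Markers of other cells moved as well. The 4 white blood cell miRNAs summed to 221 to 280 CPM in naive and 300 to 403 CPM in crushed libraries, without overlap. How common such a gap is among all miRNAs was not counted. Of the 4, 1 was called, mmu-miR-142a-5p at 0.55, which is also the most abundant of them. Red cell miRNAs spanned 29.6 to 115 against 40.6 to 178 CPM, fibroblast and meningeal miRNAs 40.1 to 47.6 against 37.6 to 58.5 CPM, and choroid plexus miRNAs 84.5 to 157 against 106 to 133 CPM, with 0 members of these 3 lists called. In the muscle list mmu-miR-133a-3p/133b-3p was higher by 0.96 and mmu-miR-1a-3p lower, at −0.26. The most abundant markers were miR-486a-5p/486b-5p for red cells, miR-142a-5p for white cells, miR-199a-3p/199b-3p for fibroblasts, miR-204-5p for choroid plexus, miR-128-3p for neurons and miR-1a-3p for muscle, and no marker of these lists was at 0 in all libraries. Their part in the vessel miRNA differences, and that of the shift in let-7, was not tested.

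In the cortex of Thap1+/- mice no vessel miRNA was called after crush. miR-126a-3p had 24479 ± 3044 CPM (SD, n = 6) in naive and 24078 ± 1822 CPM (n = 6) in crushed Thap1+/- mice, a log2 fold change of −0.02. The naive Thap1+/- libraries, from 21875 over 22885 to 28669 CPM, lay mostly below the naive wild-type ones. For miR-145a-5p the levels were 47.5 ± 16.5 and 51.2 ± 13.4 CPM, between the 2 wild-type groups. The crush comparison in Thap1+/- mice called 0.729% of miRNAs and 0 of the 5 vessel miRNAs by edgeR, 1 at an unadjusted p under 0.05 (miR-143-3p, −0.32 ± 0.12), and 0 by DESeq2 and limma-voom.

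The test of the difference itself, the interaction of crush and genotype in the cortex, called 13.5% of miRNAs and 2 of the 5. The crush effect on miR-126a-3p was higher in Thap1+/- than in wild-type mice by 0.36 ± 0.11 on the log2 scale (edgeR quasi-likelihood adjusted p = 0.0328), and that on miR-145a-3p was lower, with a difference of −0.57 ± 0.18 (adjusted p = 0.0362). The interaction for miR-145a-5p was −0.72 ± 0.32 (adjusted p = 0.111). Both calls were fragile. That of miR-126a-3p passed in 14 of 23 fits that each left out 1 library and that of miR-145a-3p in 11 of 23. Neither passed without a low-count filter, and that of miR-126a-3p was also lost without let-7. Without scaling the miR-126a-3p interaction was 0.04 and did not pass, where the median of all miRNAs was −0.35. It lay 0.39 above that median, which is no separate check, since taking off the median puts back much of the scaling.

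Among naive mice, miR-126a-3p was lower in the Thap1+/- cortex, with a log2 fold change of −0.25 ± 0.08 (edgeR adjusted p = 0.0296), in a comparison that called 20.2% of miRNAs. This comparison and that of crush in the wild-type cortex share the naive wild-type libraries, so the 2 are not independent. All 6 Thap1+/- libraries were below the wild-type mean, but the groups overlapped, since 2 of the 6 libraries held 28075 and 28669 CPM. These 2, libraries 16 and 18, stood apart in other ways. Library 16 had the highest miR-126a-5p (7208 CPM) and miR-143-3p (11404 CPM) of its group and the lowest miR-145a-5p (19.2 CPM). Without both, a choice made with earlier results of these data known, the miR-126a-3p difference was −0.37 ± 0.06 (adjusted p = 0.00014) and miR-145a-5p also passed, at 0.63 ± 0.18 (adjusted p = 0.00978). Leaving out the libraries with the highest miR-126a-3p and the lowest miR-145a-5p of the group had to move both differences this way. These values are therefore no separate evidence. With all libraries the miR-145a-5p difference was 0.38 ± 0.23 (adjusted p = 0.242). Conversely, the miR-126a-3p call was lost without any one of 9 libraries (naive Thap1+/- 48, 63, 76 and 135, naive wild-type 67, 96 and 124, crushed wild-type 113 and crushed Thap1+/- 47). The authors' deposited table has miR-126a-3p at −0.25 (adjusted p = 0.0182). Of the white blood cell miRNAs, miR-142a-3p (0.53) and miR-142a-5p (0.48) were higher in the same comparison, as were miR-29b-3p (0.61) and miR-503-5p (0.44) of the 17 other vessel wall miRNAs, and miR-1a-3p of muscle was lower, and their part was not tested.

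No vessel miRNA was called between the genotypes in the crushed cortex. The comparison called 0 of 549 miRNAs by edgeR, DESeq2 and limma-voom. At an unadjusted p under 0.05 edgeR had 43, of which 1 was a vessel miRNA, miR-145a-3p at −0.41 ± 0.12. Averaged over treatments, the genotype effect in the cortex also gave 0 calls by all 3 tools, with 86 miRNAs and 0 of the 5 at an unadjusted p under 0.05. Averaged over genotypes, where 16.6% of miRNAs were called, the crush effect passed for miR-126a-3p (−0.20 ± 0.05, edgeR adjusted p = 0.0146), miR-143-3p (−0.25 ± 0.08, adjusted p = 0.0443) and miR-145a-5p (0.47 ± 0.16, adjusted p = 0.0453). The last 2 sat just inside the threshold and passed in 7 and 9 of 23 fits that left out 1 library. Of the other vessel wall miRNAs, 5 of 17 were higher in the averaged comparison (miR-195a-5p, miR-221-3p, miR-222-3p, miR-322-5p and miR-503-5p) and 0 lower, and miR-1a-3p of muscle was lower.

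**Figure D2:**
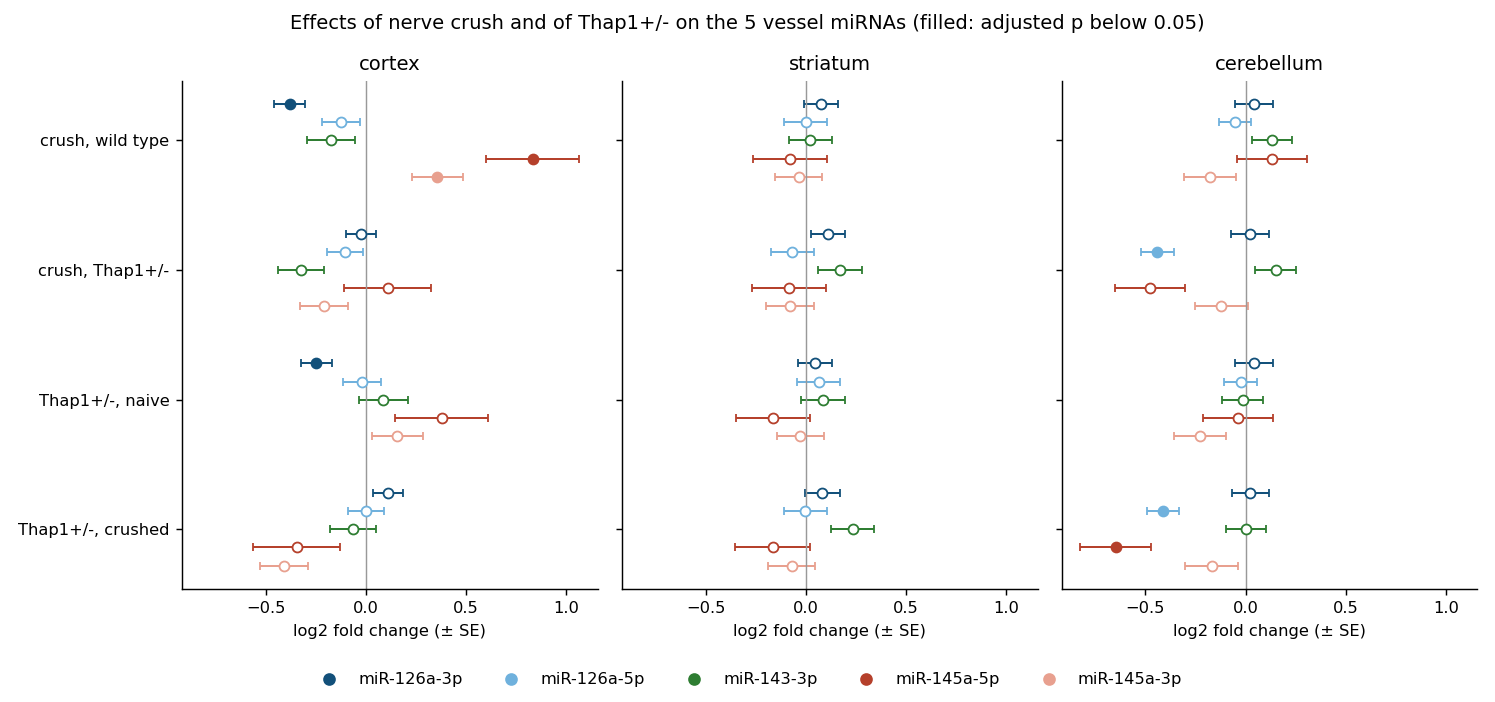
Log2 fold change (horizontal axis) with its SE for the 5 vessel miRNAs in 4 comparisons within each region, with filled symbols where the edgeR adjusted p was under 0.05. In the cortex the filled points are miR-126a-3p below 0 and the miR-145a strands above 0 after crush in wild-type mice and miR-126a-3p below 0 between genotypes in naive mice, in the cerebellum miR-126a-5p and miR-145a-5p below 0 in crushed Thap1+/- mice, and in the striatum there are none.

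In the striatum none of the 5 vessel miRNAs was called in any comparison of genotype or crush. Few miRNAs of any kind were, from 0 to 1.57% of the 575 tested. The wild-type crush effect was 0.08 ± 0.09 for miR-126a-3p, −0.08 ± 0.18 for miR-145a-5p and −0.04 ± 0.12 for miR-145a-3p. miR-126a-3p averaged 19253 ± 1397, 20287 ± 364, 19881 ± 1533 and 21474 ± 3865 CPM (SD, n = 6 each) in naive and crushed wild-type and naive and crushed Thap1+/- mice, and all 4 groups overlapped. One value had an unadjusted p under 0.05, that of miR-143-3p between genotypes in crushed mice (0.23 ± 0.11, edgeR adjusted p = 0.7). Its crushed Thap1+/- group ran from 5098 over 5736 to 8542 CPM, and the top value came from library 8 alone. DESeq2 and limma-voom called 0 of the 5 in every striatal comparison.

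In the cerebellum it was the other strand of the endothelial hairpin, miR-126a-5p, that was low in crushed Thap1+/- mice. Their libraries ran from 2179 over 2425 to 2884 CPM. Naive Thap1+/- libraries ran from 3177 over 3312 to 3747 CPM, crushed wild-type libraries from 2988 over 3254 to 3621 CPM and naive wild-type libraries from 2919 over 3569 to 3781 CPM. Every crushed Thap1+/- library was below every library of the other 3 groups. How common this is among all miRNAs was not counted. Within Thap1+/- mice the crush effect was −0.44 ± 0.08 (edgeR adjusted p = 0.00205), the 1 vessel miRNA called where 5.25% of 552 miRNAs passed. Among crushed mice the genotype effect was −0.41 ± 0.08 (adjusted p = 0.00224), where 13.4% passed. The authors' deposited table gives −0.40 (adjusted p = 3.47e-05) and −0.37 (0.000147).

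The guide strand miR-126a-3p stayed within its spread in the same libraries, at 16930 ± 2622 CPM (SD, n = 6) in crushed Thap1+/-, 16666 ± 1030 CPM in naive Thap1+/- and 16653 ± 1705 CPM in crushed wild-type mice, with log2 fold changes of 0.02 ± 0.09 in both comparisons (edgeR adjusted p = 0.923 and 0.904). miR-143-3p did not pass either (0.15 after crush and 0.00 between genotypes). The level of mmu-miR-145a-5p, by contrast, ran from 22.1 over 26.7 to 31.5 CPM in crushed Thap1+/- libraries and from 31.9 over 35.7 to 42.9 CPM in naive Thap1+/- libraries. These groups did not overlap, but the difference of −0.48 ± 0.18 missed the threshold (adjusted p = 0.0884). The share of all miRNAs without overlap between these groups was not counted. Against crushed wild-type mice, which spread from 25.5 over 39.4 to 61.6 CPM, the difference passed at −0.65 ± 0.18 (adjusted p = 0.0243). This call was lost without any one of 6 libraries (crushed Thap1+/- 46, 47 and 86 and crushed wild-type 2, 3 and 113). miR-145a-3p changed by −0.17 and −0.12 and did not pass.

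The crushed Thap1+/- cerebellum libraries 47 and 86, with the high let-7 share, were low in miR-126a-5p but not alone. Without both, a choice made after seeing the data, the miR-126a-5p differences were −0.40 ± 0.09 (edgeR adjusted p = 0.023) within Thap1+/- mice and −0.37 ± 0.09 (adjusted p = 0.0315) between genotypes. miR-145a-5p then fell short, at −0.51 ± 0.21 (adjusted p = 0.241). With only the 2 crushed groups in the fit, the miR-126a-5p genotype difference had an adjusted p of 0.0695. The interaction of crush and genotype was −0.39 ± 0.11 for miR-126a-5p (adjusted p = 0.256) and −0.61 ± 0.25 for miR-145a-5p (adjusted p = 0.433). That interaction test called 0 of 552 miRNAs by edgeR and limma-voom and 1, none of the 5, by DESeq2. At an unadjusted p under 0.05 edgeR had 57, among them 2 of the 5, so a difference between genotypes in the crush effect was not shown. Averaged effects passed for miR-126a-5p alone, at −0.22 ± 0.06 for genotype (adjusted p = 0.0146, 13.0% of miRNAs called) and −0.25 ± 0.06 for crush (adjusted p = 0.0155, 3.26% called). The genotype average did not pass without libraries 47 and 86 (adjusted p = 0.0549).

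Wild-type crush and naive genotype comparisons in the cerebellum called 0 of 552 miRNAs by edgeR, DESeq2 and limma-voom. At an unadjusted p under 0.05 edgeR had 44 and 50, with 0 of the 5 among them. Other vessel wall miRNAs had 0 calls in the cerebellar treatment and genotype comparisons. Their summed level was 9455 to 11209 CPM in crushed Thap1+/- libraries and 11734 to 12846 CPM in crushed wild-type ones, without overlap. The naive Thap1+/- sums, 11010 to 12930 CPM, overlapped those of crushed Thap1+/- libraries, and naive wild-type sums were 11813 to 14463 CPM. How common such a gap is among all miRNAs was not counted. Markers of other cells gave 1 white cell call after crush in Thap1+/- mice (mmu-miR-142a-3p, 0.56), with summed white cell levels of 86.8 to 146 against 106 to 137 CPM in naive mice. Of 6 choroid plexus and epithelial miRNAs, 2 were lower in crushed Thap1+/- than crushed wild-type mice, where 13.4% of all miRNAs were called. They were mmu-miR-141-3p at −3.23 and mmu-miR-200c-3p at −3.41. The list's sums ran from 347 to 471 CPM in crushed Thap1+/- and from 376 to 1438 CPM in crushed wild-type libraries. Naive sums were 439 to 527 CPM in Thap1+/- and 348 to 556 CPM in wild-type libraries, so the crushed wild-type group reached highest. The neuronal mmu-miR-9-5p was lower too, with −0.44 between genotypes, −0.36 after crush and −0.25 for genotype averaged over treatments. Red cell sums were 151 to 227 CPM in crushed Thap1+/-, 117 to 199 CPM in naive Thap1+/- and 104 to 204 CPM in crushed wild-type mice. The part of these in the vessel miRNA differences was not tested.

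The wild-type crush effects of cortex and striatum were then compared directly in 1 fit of all libraries. The effect on miR-126a-3p was higher in the striatum by 0.42 ± 0.13 on the log2 scale (edgeR quasi-likelihood adjusted p = 0.0122) and that on miR-145a-5p was lower, with a difference of −0.95 ± 0.29 (adjusted p = 0.0144), in a comparison that called 22.0% of 655 miRNAs. Between cerebellum and cortex, 22.6% were called and again 2 of the 5 passed, miR-126a-3p (0.38 ± 0.13, adjusted p = 0.025) and miR-145a-3p (−0.58 ± 0.19, adjusted p = 0.025), with miR-145a-5p at −0.74 (adjusted p = 0.0581). Between cerebellum and striatum edgeR called 0 of 655 miRNAs, with 33 at an unadjusted p under 0.05 and 1 called by DESeq2, and 0 of the 5 in any of these counts. Without scaling the striatum-to-cortex difference for miR-126a-3p was 0.13 and did not pass (0.50 relative to the median of all miRNAs). Here too, a value relative to the median puts back much of the scaling and is no separate check. The cerebellum-to-cortex difference for miR-126a-3p was −0.07 without scaling (0.44 relative to the median of all miRNAs), and it did not pass without naive wild-type cortex library 124 or cerebellum library 96. That for miR-145a-3p did not pass without let-7 (−0.43), without a low-count filter (−0.55), or without any one of crushed wild-type cortex libraries 113 and 139 and naive wild-type cerebellum library 136. Other vessel wall miRNAs were called lower in the same 2 comparisons, 5 of 17 in striatum minus cortex (miR-195a-5p, miR-221-3p, miR-222-3p, miR-23a-3p/23b-3p and miR-29b-3p) and 2 in cerebellum minus cortex (miR-195a-5p and miR-221-3p). Of the other lists, miR-142a-5p was lower in both, and in cerebellum minus cortex miR-133a-3p/133b-3p was lower and miR-200a-3p, miR-200c-3p and miR-429-3p were higher. Their part was not tested. The naive genotype effects gave 0 of the 5 in the comparisons of striatum or cerebellum with cortex (7.63% and 19.8% called, 1 of the 5 at an unadjusted p under 0.05 in each).

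Ratios of 2 miRNAs within a library do not depend on scaling. The ratio of miR-126a-5p to miR-126a-3p counts was 0.149 ± 0.0228 (SD, n = 6) in crushed Thap1+/- cerebellum, from 0.113 over 0.159 to 0.172. It was 0.202 ± 0.0166 in naive Thap1+/- cerebellum (0.175 to 0.218), 0.199 ± 0.0127 in crushed wild-type cerebellum (0.183 to 0.219) and 0.212 ± 0.0119 in naive wild-type cerebellum. The crushed Thap1+/- group lay below the other 3 without overlap. The log2 ratio differed by −0.46 ± 0.11 within Thap1+/- mice and by −0.43 ± 0.10 between crushed genotypes, each with a two-sided exact permutation p of 0.0021645, the smallest that 6 against 6 allows, and an adjusted p of 0.0346 over 48 ratio comparisons. Without libraries 47 and 86 the differences were −0.31 and −0.29, where 4 against 6 libraries cannot give a p small enough to pass over 48 comparisons. Among 131 hairpins with both strands measured, Mir126a ranked 41 by the size of its strand difference in the first comparison and 50 in the second, and the median absolute strand difference over these hairpins was 0.29 and 0.30.

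In the cortex the strand ratio of miR-126a moved the other way after crush in wild-type mice, from 0.188 ± 0.0117 (SD, n = 5) to 0.224 ± 0.0104 (n = 6), a log2 difference of 0.25 that did not pass (exact permutation, adjusted p = 0.0693). miR-143-3p and miR-145a-5p, which share a transcript, kept no fixed ratio. In the cortex there were 229 ± 61.5 counts of miR-143-3p per count of miR-145a-5p in naive and 114 ± 21.9 in crushed wild-type mice. These ranges, 179 to 321 and 77.0 to 141, did not overlap, and the log2 difference was −0.99 ± 0.20 (exact permutation p = 0.00433, the smallest that 6 against 5 allows, adjusted p = 0.0519). In the cerebellum the ratio was 149 ± 21.4 in naive Thap1+/- mice and 234 ± 51.7 in crushed Thap1+/- mice, from 112 over 154 to 170 and from 183 over 229 to 286. That difference of 0.63 ± 0.16 passed (exact permutation, adjusted p = 0.0346), and was 0.49 without libraries 47 and 86, again with too few libraries to pass. So 3 of 48 ratio comparisons passed, each in 54 of 71 rounds that left out 1 library. All losses came from leaving out a cerebellum library. Where that library was in a group compared, the smallest possible p rose. Other losses came from libraries in neither group compared, where the p of the call itself did not change. The p-values are adjusted together over the 48 comparisons, so the 3 calls depend on each other. In the wild-type cortex, the ratio of miR-143-3p to miR-145a-5p reached the smallest p that 6 against 5 allows. Beside the other p-values found here, this gave the adjusted p of 0.0519. The miR-126a strand ratio there did not reach that smallest p (exact permutation p = 0.00866).

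**Figure D3:**
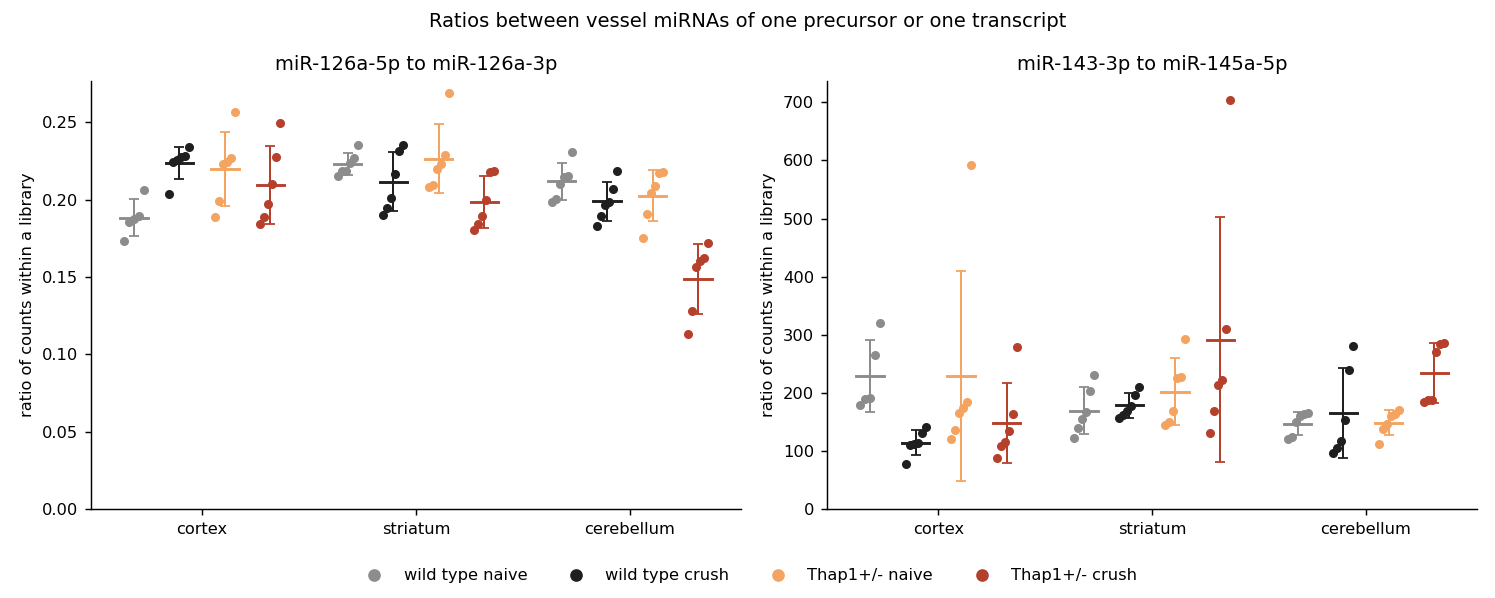
Ratio of counts within each library for miR-126a-5p to miR-126a-3p and for miR-143-3p to miR-145a-5p in the 12 groups, with points for libraries, lines for means and bars for SD. The crushed Thap1+/- cerebellum group has the lowest miR-126a strand ratios, 0.113 to 0.172, and 2 libraries stand far above the rest in the other ratio, at 593 and 704.

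Between regions, the ratio of the smooth muscle miR-143-3p to the endothelial miR-126a-3p was lowest in the striatum. Averaged over all libraries of a region, its log2 was −1.69 in the cortex, −1.90 in the striatum and −1.54 in the cerebellum. Against the cortex the striatum differed by −0.20 ± 0.05 (permutation test, adjusted p = 0.003) and the cerebellum by 0.15 ± 0.06 (adjusted p = 0.0245), and the cerebellum exceeded the striatum by 0.36 ± 0.04 (adjusted p = 0.00024). These tests pool the 4 groups of a region. In naive Thap1+/- mice the cerebellum was not above the cortex (−1.63 against −1.51).

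The pooled strand ratio of miR-126a was lower in the cerebellum than in the cortex, by −0.16 ± 0.06 (permutation test, adjusted p = 0.0233), and than in the striatum, by −0.19 ± 0.06 (adjusted p = 0.00376). The crushed Thap1+/- group alone stood low, with a mean ratio of 0.149, while the other cerebellum groups, at 0.199 to 0.212, lay within the span of the cortex group means, 0.188 to 0.224. In naive wild-type mice the ratio was higher in the cerebellum (0.212) than in the cortex (0.188), so the pooled values do not describe each group. The striatum and cortex differed by 0.03 in this ratio (permutation test, adjusted p = 0.654). The ratios of miR-143-3p to miR-145a-5p and of the miR-145a strands did not pass between any regions (adjusted p from 0.111 to 0.711). These 12 comparisons were added after the data were seen.

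Within groups, the abundant vessel miRNAs varied together from library to library, and miR-145a-5p varied against them in the cortex and striatum. In the cerebellum miR-145a-5p had a Pearson r of −0.27 with miR-126a-3p and 0.20 with miR-126a-5p. After each group mean was removed, the log2 CPM deviations of miR-126a-3p and miR-126a-5p correlated over 71 libraries with a Pearson r of 0.70 (Spearman rho 0.53), those of miR-126a-3p and miR-143-3p with 0.63 (rho 0.53), and those of miR-126a-3p and miR-145a-5p with −0.60 (rho −0.49). Without the 2 libraries farthest from the median these were 0.52, 0.52 and −0.50. The points share library, depth and scaling, and so these values are descriptions. miR-143-3p and miR-145a-5p had r = −0.42 (rho −0.26), which was −0.24 without 2 libraries, and by region it was −0.52 in the cortex, −0.66 in the striatum and −0.01 in the cerebellum. Without 2 libraries each, these became −0.08, −0.37 and 0.17. Over the 12 group means the same pair rose and fell together, with r = 0.78. The 2 strands of miR-145a showed r = 0.04 over all libraries, but the sign differed by region. It was 0.10 in the cortex, −0.55 in the striatum and 0.46 in the cerebellum. Without 2 libraries each, these were 0.27, −0.27 and 0.59.

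**Figure D4:**
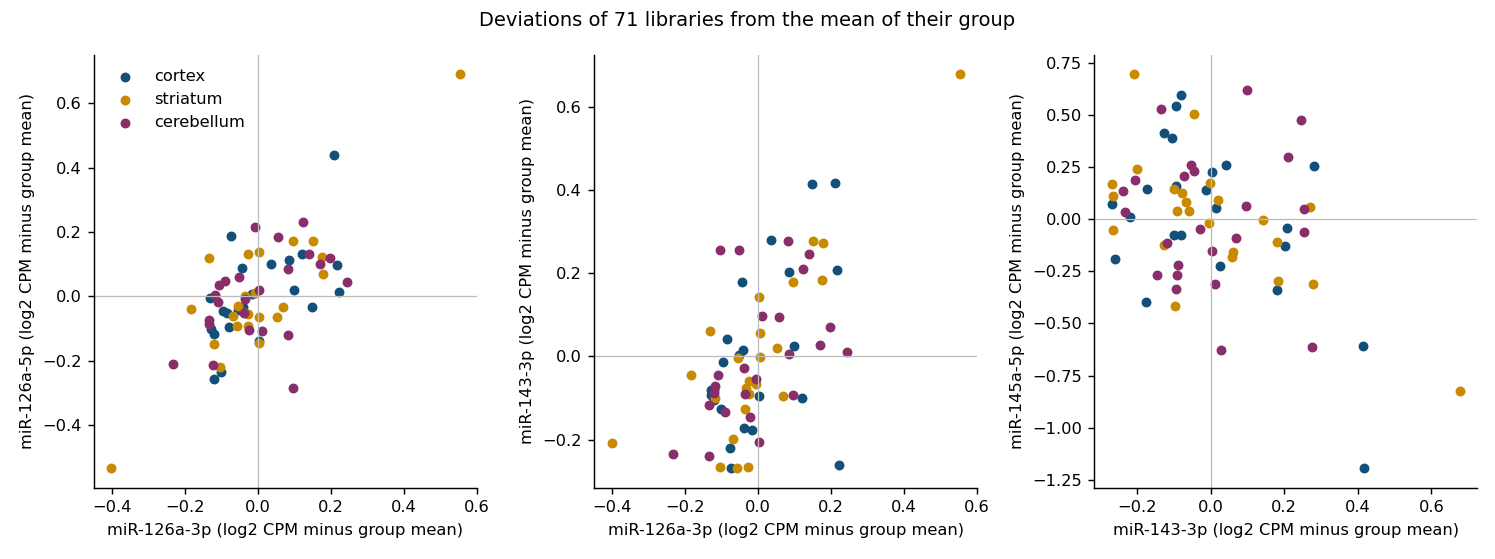
Deviation of each library from its group mean in log2 CPM for 3 pairs of vessel miRNAs, with 1 point per library (n = 71) and 1 colour or symbol per region. The points rise together for miR-126a-3p with miR-126a-5p (r = 0.70) and with miR-143-3p (r = 0.63), and fall for miR-143-3p with miR-145a-5p (r = −0.42), where a few libraries lie far out.

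The miRNAs most like each vessel miRNA by this measure, among 291 abundant candidates (292 for miR-145a-3p), were not other vessel miRNAs as a rule. For miR-126a-3p they were miR-324-5p and miR-26b-5p (r = 0.80 each), miR-32-3p (0.78), miR-411-5p (0.76) and let-7f-5p (0.76), with miR-126a-5p in 9th place and miR-143-3p in 15th. For miR-126a-5p they were the neuronal miR-9-5p (0.87), miR-3068-5p (0.83), miR-30e-5p and miR-340-5p (0.78 each) and miR-9-3p (0.76). Its partner strand miR-126a-3p came 10th (0.70). For miR-143-3p they were miR-30e-5p (0.84), miR-30a-5p (0.77), miR-376a-3p (0.76), miR-411-5p (0.75) and miR-381-3p (0.72). For miR-145a-3p they were miR-369-3p and miR-384-3p (0.62 each), miR-22-3p (0.61), miR-153-5p and miR-9-3p (0.59 each), with miR-145a-5p in 168th place. For miR-145a-5p they were miR-674-3p, miR-204-5p, miR-125b-5p and miR-23a-3p/23b-3p (0.77 to 0.76) and miR-150-5p (0.74), and miR-126a-3p came 287th of 291. Base composition ran along this order. The 20 miRNAs most like miR-126a-3p had a median GC content of 38.6% (16 with a sequence) and the 20 least like it 52.2% (18 with a sequence). For miR-145a-5p the medians were 50.0% and 41.9% (18 with a sequence in each). GC content also ran with some of the comparisons across the miRNAs with a sequence. Its Pearson r with the log2 fold change was −0.15 for crush in wild-type cortex (472 of 549 miRNAs) and 0.28 for genotype in crushed cerebellum (473 of 552). For genotype in naive cerebellum, where 0 miRNAs were called, it was 0.25. Values near 0 also occurred, with 0.02 for crush in Thap1+/- cortex and 0.005 for genotype in naive striatum. Its part in the vessel miRNA differences was not tested.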

How the data were processed

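Small RNA was measured in bulk tissue. Per the labels' protocols, enriched miRNA was extracted with a mini kit from cerebellum and a micro kit from cortex and striatum, and 10 ng entered QIAseq miRNA UDI libraries. Per the submitters' processing notes, featureCounts 1.6.4 and R 4.1.0 were used. The aligner, the annotation, the genome build and any collapsing of molecular identifiers were not given in the sources used here. The authors deposited 12 tables, 4 per region, with raw read counts per miRNA beside their own log2 fold changes and adjusted p-values. The tables also hold 284 per-sample columns named as normalized counts, which were not used. Column numbers name a library and match no replicate number of the labels. The members and lists were chosen with earlier results of these data known.

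From the deposited counts, each region was fitted with its 4 groups in edgeR 4.0.16 (R 4.3.3; TMM, filterByExpr, quasi-likelihood F test, Benjamini-Hochberg over all miRNAs tested, threshold 0.05), and all 71 libraries jointly for comparisons between regions. An SE was obtained as the size of the log2 fold change divided by the root of its F value. CPM levels within a region use that region's scaling. Counts are of whole mature miRNAs, so no length correction was made. Ratios used log2 of counts plus 0.5, with exact permutation tests between groups and 100000 permutations between regions (scipy 1.17.1). Likeness was the Pearson r of log2 CPM (prior count 2) after removing group means. The named miRNAs are the 5 members, the list members called in a comparison where a vessel miRNA was called, and the most abundant of each list. The 5 most like each member, over miRNAs averaging 10 CPM or more, are also named. The list of other vessel wall miRNAs has 26 names, found in 23 features, of which 3 were at 0 in all libraries (miR-126b-5p, miR-145b and miR-24-3p) and 17 were tested. Alternatives were DESeq2 1.42.0, limma-voom 3.58.1, RLE and no scaling, other filters, leaving out let-7, fewer groups and each library in turn. The fit was tested on simulated data. Replicates are labelled as biological; among 175 within-group pairs of libraries none were identical, and each differed beyond counting noise (chi-square per degree of freedom of at least 10.9).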

Additional observations from a re-analysis of the deposited data

Results flagged for a closer look

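Single libraries lay far from the rest of their group in 13 of 108 groups of values examined. For 1 such group of values chance gives about 1 in 20. The ratios are built from the same miRNAs, so the flags are not independent and their number cannot be set against that rate. Most of the 13 came from 2 Thap1+/- libraries. Naive cortex library 16 had 7208 CPM of miR-126a-5p where the others of its group had 4479 to 5421, and 11404 CPM of miR-143-3p where the others had 7211 to 8755. Its ratio of miR-145a-3p to miR-145a-5p was 0.643 (others 0.186 to 0.264) and that of miR-143-3p to miR-145a-5p was 593 (others 121 to 184). Crushed striatum library 8 had the same profile, with 8542 CPM of miR-143-3p (others 5098 to 6030), a miR-145a strand ratio of 0.734 (others 0.146 to 0.343) and a miR-143-3p to miR-145a-5p ratio of 704 (others 132 to 309). Both held few miR-145a-5p reads, 182 and 109 counts.

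The other single libraries were spread over groups. Naive Thap1+/- cerebellum library 76 had 3747 CPM of miR-126a-5p (others 3177 to 3347), and naive wild-type cerebellum library 118 had 49.9 CPM of miR-145a-5p (others 32.9 to 38.1). The miR-126a strand ratio was 0.204 in crushed wild-type cortex library 14 (others 0.224 to 0.234) and 0.269 in naive Thap1+/- striatum library 63 (others 0.208 to 0.229). The miR-145a strand ratio was 0.313 in crushed Thap1+/- cortex library 133 (others 0.155 to 0.209). The ratio of miR-143-3p to miR-126a-3p was 0.252 in naive Thap1+/- cortex library 18 (others 0.356 to 0.406).

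Between groups, 6 effects differed by a test of the difference itself. All of them use the same naive wild-type cortex libraries, so they are not separate findings. That group had a mean let-7 share of 55.2% (n = 5), where the other cortex group means were 45.9 to 48.8%. The part of this shift in the 6 differences was not tested. The crush effect in the cortex differed between genotypes by 0.36 for miR-126a-3p and −0.57 for miR-145a-3p on the log2 scale. The wild-type crush effect differed between striatum and cortex by 0.42 for miR-126a-3p and −0.95 for miR-145a-5p, and between cerebellum and cortex by 0.38 for miR-126a-3p and −0.58 for miR-145a-3p.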

How the results depend on the processing

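Of 258 recomputed values of the 33 calls under other settings, 215 kept direction and call, 40 kept direction only and 3 reversed, all without scaling: cerebellum against striatum for miR-126a-3p (−0.28) and miR-126a-5p (−0.47), and the cerebellum-minus-cortex crush effect for miR-126a-3p (−0.069). Leaving out single libraries gave 1544 kept calls, 132 lost calls and 0 reversals. Kept calls include fits that left out a library of a group not compared. Each of the 3 ratio calls was kept in 54 of 71 such fits, and all their losses came from leaving out a cerebellum library. With 1 library fewer, the smallest p that a permutation test of 6 against 6 allows rises from 0.0021645 to 0.00433. The cause of the other lost calls was not tested.

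The number of vessel miRNAs called changed by more than 1.5 times, or from or to 0, as follows. For genotype in naive cortex (1 called) it was 0 without scaling, without a filter, without let-7 and with only the 2 groups, and 2 without cortex libraries 16 and 18. For the cortex interaction (2) it was 0 without a filter and 1 without let-7. Averaged over treatments, cortex genotype (0) gave 1 without libraries 16 and 18, and cortex crush averaged over genotypes (3) gave 1 without scaling, without a filter and without libraries 16 and 18. For genotype in crushed cerebellum (2) it was 1 without a filter, 0 with only the 2 groups and 1 without libraries 47 and 86. The averaged cerebellum genotype effect (1) gave 0 without 47 and 86, and the averaged crush effect (1) gave 2 without scaling. Cerebellum against cortex (2) gave 1 with RLE and DESeq2 and 5 without scaling, and cerebellum against striatum (5) gave 3 without scaling. Differences of naive genotype effects gave 2 for striatum and 3 for cerebellum minus cortex without the 5 libraries that stood apart, and for the latter 1 without scaling and without let-7. The cerebellum-minus-cortex crush effect (2) gave 1 without a filter. Ratio comparisons (3) gave 0 with medians and without 47 and 86, where too few libraries are left for any to pass. Smaller changes were 2 in place of 3 for crush in wild-type cortex (RLE, no scaling and DESeq2) and for averaged cortex crush (RLE and without let-7), 4 in place of 5 for cerebellum against striatum (no filter and without let-7), and 3 in place of 2 for the cortex interaction (no scaling and without libraries 16 and 18), for cerebellum against cortex in naive wild-type libraries and for the cerebellum-minus-cortex crush effect without the 5 libraries.

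Leaving out single libraries, the calls ranged from 0 to 2 for genotype in naive cortex, 2 to 3 for crush in wild-type cortex, 0 to 3 for the cortex interaction, 1 to 3 for averaged cortex crush, 1 to 2 for genotype in crushed cerebellum, 0 to 2 for averaged cerebellum genotype, 4 to 5 for cerebellum against striatum, 0 to 1 for the naive genotype effect and 1 to 3 for the crush effect in cerebellum minus cortex, and 0 to 5 for ratios.

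No paired analysis was possible within regions because the groups compared share no library number and the numbers match no label. Across regions libraries share numbers, but same-numbered libraries did not vary together (median r of 0.08, 0.04 and 0.01 for the 3 pairs of regions, and 5 of 23, 6 of 24 and 6 of 23 best with their own number). With these numbers as a replicate block, miR-126a-3p in striatum against cortex was −0.50 ± 0.05, and all 5 were called.

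Depth limits miR-145a-3p most, at 34 to 174 counts per library. p-values measure the spread between labelled replicates.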
